A study of Homo sapiens with 16 samples.

Results

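Kidney organoids grown from the human embryonic stem cell line UM77-2 held cells with RNA of sensory neurons, a cell type outside the kidney lineage. The cells described here were selected on 8 genes, HMX1, NEUROD1, PRPH, ISL1, SNCG, CNTN2, NTRK3 and PPP1R17, and a cell was kept when it had over 500 detected genes and at least 1 UMI (unique molecular identifier, 1 captured RNA molecule) in 3 or more of them. The gate kept 3187 of 35066 cells (9.09%), of which 1423 came from the vehicle control (VC) library and 1764 from the TNFα library. Sensory neurons carry touch, pain, itch and limb position from the body to the spinal cord. During development, NEUROG1 and NEUROD1 start their differentiation, ISL1 and POU4F1 fix the sensory programme, and the neurotrophin receptors NTRK2 and NTRK3 mark lineages for touch and limb position. Neurons have been described as an off-target cell type of stem cell derived kidney organoids.

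The 2 single-cell libraries were day 24 organoids, 1 given VC and 1 given TNFα for 24 h, a cytokine used as an inflammatory stressor. Both were droplet libraries (10x Genomics, 3' v3) of whole organoid cultures from 1 cell line, dissociated with a cold active protease. The VC matrix held 12494 barcodes, of which 11906 passed 500 genes, with 100623461 UMIs and a median of 6358.5 per cell. The TNFα matrix held 23160 barcodes, which all passed, with 91152175 UMIs and a median of 2599. The bulk RNA libraries that bear on these genes were set 1 (1 library each of day 21, 25 and 29), set 2 (2 libraries of each of those days) and, on day 25, a TNFα set (VC or 5 ng/ml TNFα for 24 h or 48 h, 1 library each), all from isolated spheroids, with no other treatment given in the labels. A single-cell library of untreated day 25 organoids was not analysed here. With 1 library for each condition, single-cell differences have no replicate error and no test, and intervals in brackets are exact 95% intervals for counting error only. The libraries shared 74 cell barcodes. None of these was gated in both, and 12 were gated in either.

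Gated cells made up 12% [11.4 to 12.5] of the VC library and 7.62% [7.28 to 7.97] of the TNFα library. Depth differed between the libraries and sets how many gate genes can be seen in a cell. When each cell was thinned to 1500 UMIs, 7.0% of 10953 VC cells (953 were too shallow) and 3.65% of 23160 TNFα cells (none too shallow) passed the gate. Levels of the 8 genes describe the choice and were not tested. SNCG, a synuclein of peripheral neurons (ENSG00000173267, chromosome 10, 86958599 to 86963258, GRCh38), reached 2507 CPM (counts per 1000000 UMIs of the class) in gated VC cells and 126 CPM in all other VC cells, and 1596 and 145 CPM in the TNFα library. PPP1R17, a phosphatase inhibitor (ENSG00000106341, chromosome 7, 31687215 to 31708455), reached 607 against 9.11 CPM in VC and 428 against 22.7 CPM in TNFα. PRPH, the intermediate filament peripherin (ENSG00000135406, chromosome 12, 49295147 to 49298686), reached 490 against 7.35 CPM and 301 against 12.2 CPM. For these 3 genes the gated cells were far above the other cells, as the selection requires.

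Of the remaining gate genes, CNTN2, an axonal adhesion molecule (ENSG00000184144, chromosome 1, 205042937 to 205078289), stood at 424 CPM in gated VC cells and 239 CPM in gated TNFα cells. HMX1, a homeobox factor of cranial sensory ganglia (ENSG00000215612, chromosome 4, 8846076 to 8871839), stood at 350 and 282 CPM. NEUROD1, a proneural factor (ENSG00000162992, chromosome 2, 181668295 to 181680827), stood at 260 and 172 CPM. These levels go with the number of gate genes a cell had, which differed between the libraries, and are given as values only. The receptor of neurotrophin 3, NTRK3 (ENSG00000140538, chromosome 15, 87859751 to 88256791), stood at 164 and 92.5 CPM, and the LIM homeobox factor ISL1 (ENSG00000016082, chromosome 5, 51383448 to 51394730) at 155 and 98.2 CPM. Positions were looked up by identifier in GENCODE 44.

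The number of gate genes in a cell split the gated cells in VC but not in TNFα. From 3 to 8 gate genes, VC held 484, 180, 140, 181, 252 and 186 cells, with a second peak at 7 genes, whereas TNFα held 964, 380, 154, 116, 96 and 54 cells, fewer at each step. Cells with 6 to 8 gate genes, a class set after these counts were seen, numbered 619 in VC (43.5% of gated cells, 5.20% of all cells) and 266 in TNFα (15.1% of gated cells, 1.15% of all cells). Their median depth was 10598 UMIs in VC and 6538.5 in TNFα, above the 7853 and 3355 UMIs of all gated cells and the 6179 and 2552.5 UMIs of the other cells. After thinning, 1.16% of VC cells and 0.220% of TNFα cells still had 6 or more gate genes, and the second peak was gone. At the edge of the gate, cells with 3 gate genes (just inside) had a median of 7 of 12 pan-neuronal genes in VC and 4 in TNFα, and cells with 2 (just outside) had 4 and 3. SNCG was present in 93.0% of VC cells and 93.2% of TNFα cells with exactly 3 gate genes.

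**Figure D1:**
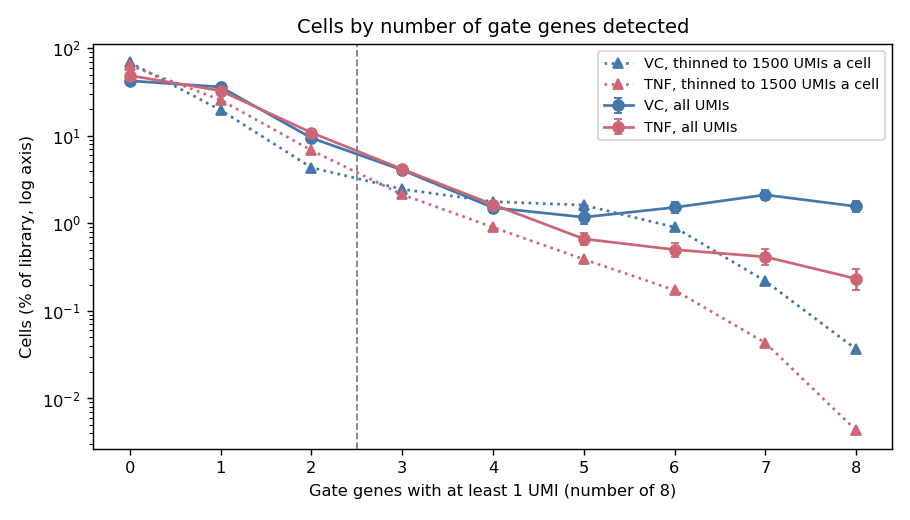
Share of each library's cells (%, log axis) against the number of gate genes with at least 1 UMI, for VC (blue) and TNFα (red), with all UMIs (circles, bars are exact 95% binomial intervals) and after thinning to 1500 UMIs a cell (triangles). The dashed line is the gate at 3 genes; VC has a second peak at 7 genes, which thinning removes, and TNFα has none.

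The label of sensory neuron held for part of the gated cells. The 27 sensory neuron genes outside the gate summed to 1330 CPM in gated VC cells and 275 CPM in other VC cells, and to 777 and 232 CPM in the TNFα library. In cells with 6 to 8 gate genes the sums were 1933 CPM in VC and 1523 CPM in TNFα. The sum was higher with each further gate gene, from 482 CPM at 3 genes to 2219 CPM at 8 in VC and from 401 CPM at 3 genes to 1611 CPM at 7 in TNFα, where it was 1580 CPM at 8. Genes of other cell types took the opposite course. The 8 stromal genes summed to 918 CPM at 3 gate genes and 287 CPM at 8 in VC, and to 1901 and 583 CPM in TNFα. The 8 podocyte genes summed to 789 and 272 CPM in VC and to 895 and 313 CPM in TNFα. Over all gated cells, the stromal sum was 0.305 times that of the other cells in VC and 0.660 times in TNFα, so gated TNFα cells lay closer to the rest of their library. The most abundant stromal gene in gated cells was COL1A1 in both libraries, and no gene of either list was at 0.

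**Figure D2:**
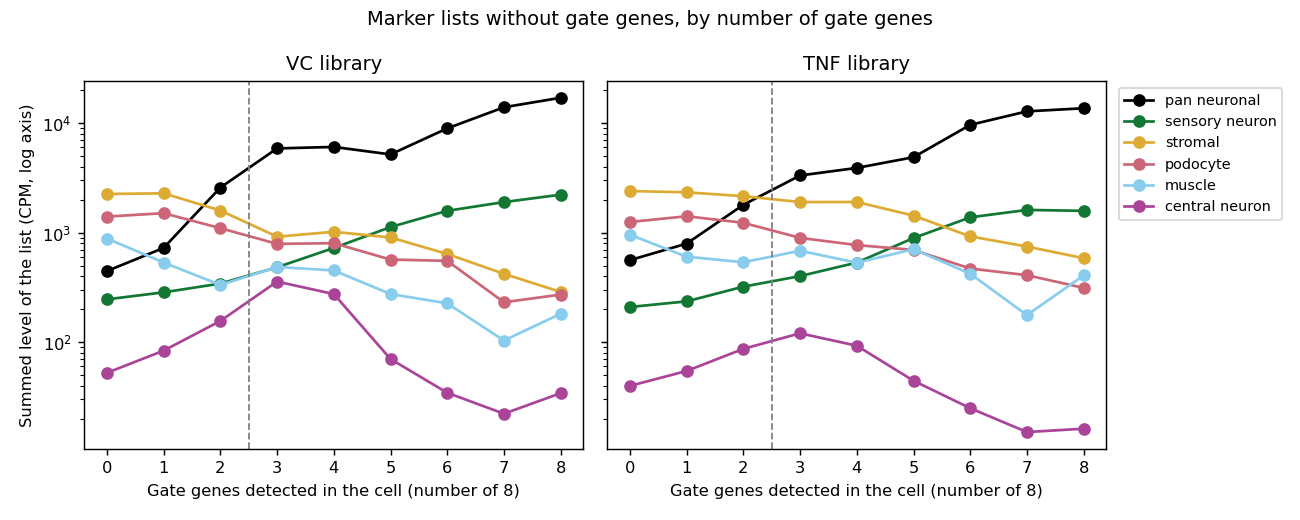
Summed level of 6 marker lists (CPM, log axis) in cells grouped by the number of gate genes they hold, for the VC (left) and TNFα (right) library, with the gate marked by a dashed line and 1 point for all cells of a number. Pan-neuronal and sensory neuron genes are higher to the right and stromal and podocyte genes lower, and central neuron genes are highest at 3 gate genes.

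Other neurons entered the gate at its lower edge. Genes of central neurons summed to 357 CPM in VC cells with 3 gate genes and 22.2 CPM in those with 7, and in TNFα to 120 and 15.1 CPM. LHX9, a LIM homeobox factor of spinal cord interneurons, led this list with 204 CPM at 3 gate genes and 13.3 CPM at 7 in VC. The 11 autonomic genes summed to 32.2 CPM in gated VC cells, 42.1 CPM in other VC cells and 14.8 CPM with 6 to 8 gate genes. Their sum was not low in every part, at 71.9 CPM with 4 gate genes in VC. It was 375 CPM in VC cluster 11 and 165 CPM in VC cluster 9 of the clusters described below. PHOX2A, an autonomic master regulator, was at 0 with 6 to 8 gate genes in both libraries. Retinal genes summed to 9.40 CPM in gated VC cells and 11.7 CPM in gated TNFα cells. The pancreatic genes PAX4 and INS were at 0 in every class of both libraries, so that the 696 CPM of the endocrine list in gated VC cells came mostly from SST, INSM1, CHGB, CHGA and SCG2, which neurons share. Endothelial and immune genes summed to 2.83 CPM in gated VC cells and 2.61 CPM in gated TNFα cells.

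Clusters of gated cells, built without the gate genes and used as a description, showed the same mixture. Of 12 VC clusters, 5 had a sensory neuron sum of at least 1000 CPM and held 701 cells (49.3% of gated cells). Cluster 2 (197 cells, 97.5% with 6 to 8 gate genes) was led by genes such as KCNH6, NHLH1, BTBD17 and SYNPR and had SHOX2 at 409 CPM. Cluster 3 (167 cells) was led by NEFL, NEFM and PAPPA2 and had the highest SST (1135 CPM) and PRPH (1948 CPM) of the VC clusters. Cluster 4 (163 cells) was led by SLC6A3 and NEUROG1, the latter at 509 CPM, and had STMN2, a pan-neuronal gene, at 1155 CPM against 6293 CPM in cluster 3. Cluster 8 (93 cells) was led by cell division genes such as TOP2A and MKI67 and had NEUROG1 at 392 CPM. Cluster 9 (81 cells) was shallow, with a median of 2213 UMIs, and was led by genes such as DLK1, CHGA and TLX1.

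The other VC clusters were led by genes of other cells. Cluster 1 (225 cells) was led by SPRR2F, MGP, NPY and COL1A1, had 6 to 8 gate genes in 40.9% of its cells, and 42.2% were among the top 5% of doublet scores of the library. Cluster 10 (51 cells) was led by podocyte genes such as TCF21 and PODXL, and 56.9% of its cells had a top doublet score. Cluster 5 (136 cells) was led by epithelial genes such as MMP7, FXYD2 and EPCAM, and cluster 12 (15 cells) by muscle genes such as MYLPF and MYOG. Clusters 6 and 7 (126 and 122 cells) were led by BARHL2, LHX9 and VIP and by ATOH1, CRABP1 and BARHL1, which include factors of dorsal spinal interneurons, and had no more than 1 cell each with 6 to 8 gate genes. Cluster 11 (47 cells) was led by genes such as TFAP2A, RGS16 and LHX1. Of 5 TNFα clusters, 1 passed 1000 CPM, cluster 2 (385 cells, 21.8% of gated cells), led by genes such as SHOX2, NEUROG1 and KCNJ12. The largest TNFα cluster (993 cells, 56.3% of gated cells) was led by the epithelial genes WFDC2, MAL and IRX1, had a sensory neuron sum of 422 CPM and had 6 to 8 gate genes in 2.42% of its cells. Most gated TNFα cells therefore went against the label, and they are called gated cells here.

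Doublets were kept. The Scrublet caller marked no cell of either library at its own threshold, so it did not work here, and the top 5% of scores were followed in place of calls, a choice made after the data were seen. Such scores were held by 10.8% of gated cells and 4.03% of other cells in VC, and by 3.12% and 4.26% in TNFα. They were not confined to the lower edge of the gate. In VC they were held by 11.8% of cells with 6 to 8 gate genes and 10.1% with 3 to 5, and in TNFα by 2.63% and 3.20%. The part of doublets and of free RNA in the droplets in the mixture above was not tested.

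Beyond the gate genes, gated VC cells were at least 2 times above the other VC cells in 717 of 9838 genes with a mean of both levels of at least 10 CPM (7.29%) and at or under 0.5 times in 738 (7.50%). In the TNFα library the counts were 361 higher (3.73%) and 34 lower (0.352%) of 9671 genes. These genes go with the choice of cells and are given as a description. The median log2 ratio of all genes was -0.04 in VC and -0.08 in TNFα. The 25 leading genes, taken as those with the highest lower ratio of the libraries, held no gene of the stromal, podocyte or muscle lists.

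The leading genes included transcription factors of the sensory lineage, but not every factor of the sensory list was higher in gated VC cells, and ETV1 was lower. POU4F1, a factor shared by nearly all sensory neurons (ENSG00000152192, chromosome 13, 78598362 to 78603552), stood at 133 CPM [127 to 139] in gated and 3.25 CPM [2.88 to 3.65] in other VC cells, a ratio of 40.8 [36.0 to 46.4]. In the TNFα library it stood at 62.5 CPM [57.3 to 68.1] and 3.92 CPM [3.50 to 4.37], a ratio of 16 [13.9 to 18.4]. It was seen in 49.8% of gated and 1.32% of podocyte-gated VC cells (4 or more of 8 podocyte genes and outside the gate), at median depths of 7853 and 5956 UMIs. In TNFα it was seen in 18.0% of gated and 1.53% of podocyte-gated cells, at 3355 and 3104 UMIs. After thinning the shares were 15.9% and 0.391% in VC and 7.26% and 0.678% in TNFα, so the gated cells stayed above the podocyte-gated cells, which should lack the gene.

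SHOX2, a homeobox factor of touch neurons (ENSG00000168779, chromosome 3, 158095905 to 158106420), stood at 178 against 1.40 CPM in VC, a ratio of 128 [106 to 154], and at 83.1 against 5.40 CPM in TNFα, a ratio of 15.4 [13.6 to 17.4]. Among the other cells, those of the TNFα library held 3.86 times [3.15 to 4.76] the VC level of SHOX2. TLX3, a homeobox factor of sensory and dorsal horn neurons (ENSG00000164438, chromosome 5, 171309248 to 171312139), stood at 176 against 5.08 CPM in VC and 101 against 5.57 CPM in TNFα. Its relative TLX2 stood at 75.9 against 0.890 CPM and 53.8 against 2.99 CPM. POU4F3, known from hair cells and some sensory neurons, had the highest lower ratio of all genes, with 46.3 against 0.370 CPM in VC (ratio 125 [87.8 to 185]) and 29.1 against 0.895 CPM in TNFα (ratio 32.5 [24.9 to 42.7]). With 6 to 8 gate genes in VC, POU4F3 gave 82.7 of the 98.0 CPM of the 5 hair cell genes, and ATOH1, the hair cell master regulator, gave 3.48 CPM. The neuronal bHLH factors NHLH1 (164 against 4.98 CPM in VC) and NEUROD4 (83.6 against 2.12 CPM in VC) were also among the leading genes.

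**Figure D3:**
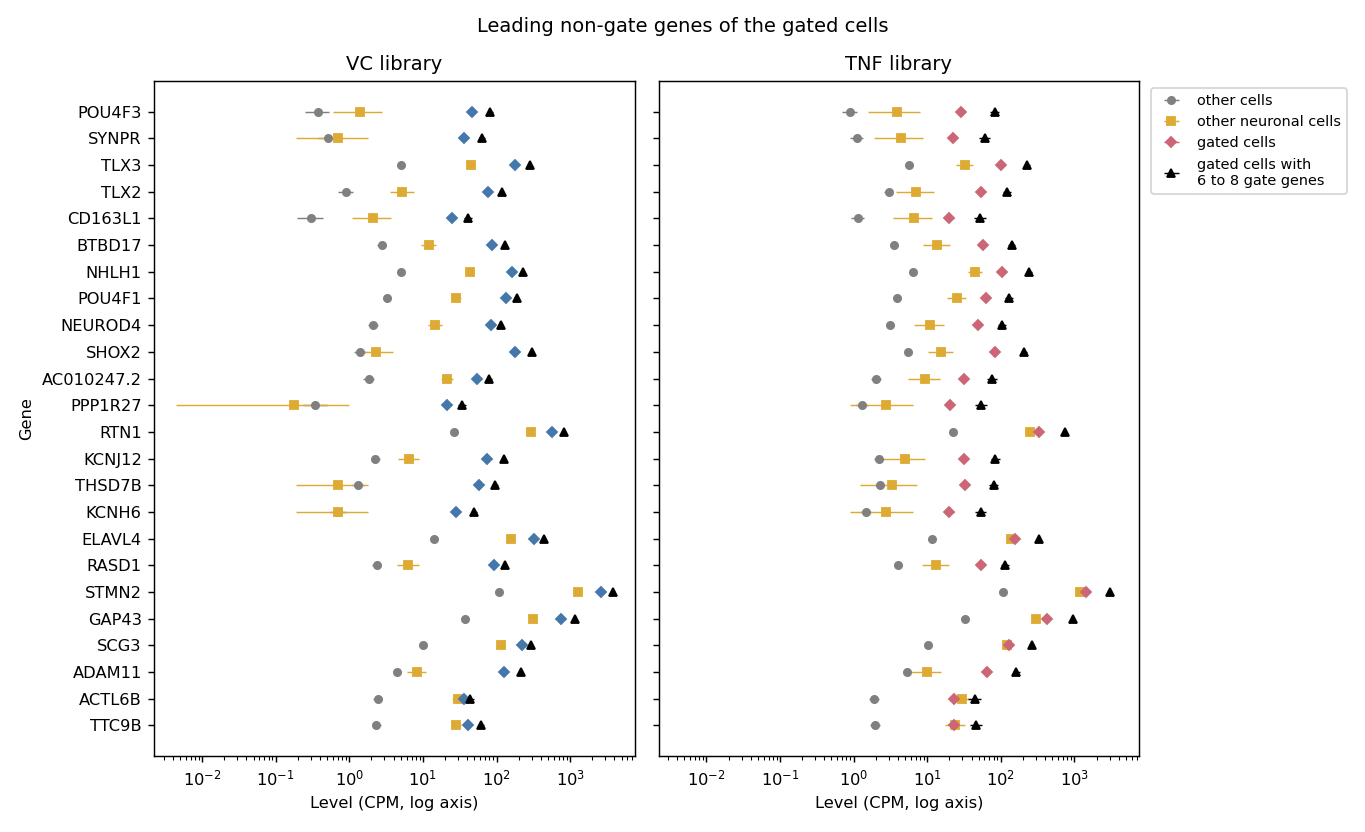
Level (CPM, log axis) of 24 leading genes outside the gate in the VC (left) and TNFα (right) library, for other cells (grey), other neuronal cells (yellow), gated cells (coloured diamonds) and gated cells with 6 to 8 gate genes (black), with exact 95% Poisson intervals. POU4F3 stands at 46.3 CPM in gated VC cells and 0.370 CPM in other VC cells, and SHOX2 at 178 CPM in gated and 2.28 CPM in other neuronal VC cells.

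Receptor genes went both ways. NGFR, the low-affinity neurotrophin receptor, stood at 111 against 23.4 CPM in VC and 66.6 against 17.9 CPM in TNFα. NTRK2, the receptor of touch lineages, went the other way, at 51.6 CPM in gated, 82.2 CPM in other and 182 CPM in podocyte-gated VC cells. GFRA3, the artemin co-receptor of pain neurons, was at 21.1 CPM in gated and 214 CPM in podocyte-gated VC cells, and at 14.3 and 67.3 CPM in TNFα. RET, its signalling partner, stayed at 1.13 CPM in gated VC cells and 2.25 CPM in gated TNFα cells. Of 27 sensory neuron genes, 16 passed the level filter in VC, of which 13 were at least 2 times higher and 1 lower, and 14 passed in TNFα, of which 11 were higher and none lower. Over all genes the shares were 7.29% higher and 7.50% lower in VC and 3.73% and 0.352% in TNFα. A gene can pass this filter through the gated cells alone, so the counts are not read as a result about the sensory list.

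Sensory channels were represented in part. PIEZO2, the mechanically gated channel of touch and limb position, stood at 78.7 CPM in gated and 12.5 CPM in other VC cells, a ratio of 6.32 [5.81 to 6.88], and at 50.2 and 19.9 CPM in TNFα, a ratio of 2.52 [2.26 to 2.80]. P2RX3, the ATP-gated channel of pain neurons, stood at 134 against 5.82 CPM and 65.5 against 6.12 CPM. SCN9A, a sodium channel of pain neurons, stood at 23.4 against 5.92 CPM and 11.5 against 3.97 CPM. The adult pain genes were near the limit of detection. SCN10A had 0.0707 CPM in gated VC cells and no UMI in gated TNFα cells, TRPV1 stood at 3.96 CPM in gated and 3.01 CPM in other VC cells, and the peptide CALCA at 0.707 and 2.37 CPM. TRPA1 and TRPM8, the irritant and cold channels, stood at 0.212 and 0.354 CPM in gated VC cells. The potassium channel genes KCNH6 (28.6 against 0.705 CPM in VC) and KCNJ12 (75.0 against 2.25 CPM in VC) were leading genes, and the calcium channel gene CACNA1A stood at 103 against 10.9 CPM.

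SST, the somatostatin gene, stood at 364 CPM in gated and 42.5 CPM in other VC cells, at 213 and 80.9 CPM in TNFα, and at 611 and 474 CPM in cells with 6 to 8 gate genes. It was seen in 27.6% of gated and 5.92% of podocyte-gated VC cells, and in 15.0% and 2.47% after thinning. Podocyte-gated cells of the TNFα library held SST at 162 CPM. The vesicular glutamate transporter SLC17A6 stood at 47.4 against 4.01 CPM in VC and 16.6 against 2.19 CPM in TNFα, whereas the GABA synthesis genes GAD1 and GAD2 stood at 0.0707 and 0.848 CPM in gated VC cells. The acetylcholine gene CHAT had 0.0707 CPM in gated VC cells, and TH and DBH of catecholamine synthesis had 1.48 and 2.69 CPM. ADCYAP1, the gene of the neuropeptide PACAP, stood at 49.9 against 6.54 CPM in VC and 31.1 against 5.44 CPM in TNFα. VIP, a neuropeptide, was carried by the lower edge of the gate, with 72.1 CPM at 3 to 5 gate genes and 8.43 CPM at 6 to 8 in VC.

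All 12 pan-neuronal genes were at least 2 times higher in the gated cells of both libraries, beside 7.29% of all genes in VC and 3.73% in TNFα. Their sum was 10010 CPM in gated and 826 CPM in other VC cells, and 5893 and 785 CPM in TNFα. TUBB3, neuronal tubulin, stood at 4140 CPM in gated VC cells and 2608 CPM in gated TNFα cells. STMN2, a microtubule regulator of growing axons, stood at 2603 against 108 CPM in VC and 1424 against 108 CPM in TNFα. Of 20 cytoskeletal genes, 19 were higher in both libraries, beside the same 7.29% and 3.73% of all genes, with NEFM at 1289 CPM in gated VC cells. NEFH, the heavy neurofilament of mature axons, was the exception at 12.4 CPM in gated and 14.3 CPM in other VC cells. Of synaptic vesicle genes, 10 of 11 that passed the filter in VC and 9 of 10 in TNFα were higher, beside these same shares of all genes. SYT4 led them at 197 CPM in gated VC cells. Because a gene can pass the filter through the gated cells alone, these list counts are not read as results about the lists. Division genes summed to 856 CPM in gated and 1225 CPM in other VC cells and to 480 CPM with 6 to 8 gate genes.

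To see what sets these cells apart from other neurons, cells outside the gate with 6 or more of 12 pan-neuronal genes were used, 617 in VC (median 6102 UMIs) and 376 in TNFα (3518 UMIs). Between cells with 6 to 8 gate genes and these other neuronal cells, SHOX2 stood at 305 against 2.28 CPM in VC, a ratio of 133 [77.9 to 251], and at 204 against 15.4 CPM in TNFα, a ratio of 13.3 [9.07 to 20.2]. POU4F1 and TLX3 were shared more widely, with ratios of 6.60 [5.60 to 7.81] and 6.23 [5.47 to 7.11] in VC and 5.14 [3.76 to 7.18] and 6.95 [5.30 to 9.27] in TNFα. Central neuron genes were the reverse, at 323 CPM in other neuronal cells and 29.6 CPM with 6 to 8 gate genes in VC, and at 286 and 18.7 CPM in TNFα. SLC17A6 was at 50.9 CPM in other neuronal cells and 49.6 CPM with 6 to 8 gate genes in VC. The selection fixes part of this contrast, and no replicate supports it.

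The 10 genes with the lowest higher ratio of the libraries included LINC01320, AMN, MT1E, MT1G, MITF, HLA-DMB, LMX1B, MT1F and PDZK1. MT1G, a metal-binding metallothionein, stood at 4.81 against 66.4 CPM in VC and 12.2 against 28.8 CPM in TNFα. AMN, part of the proximal tubule uptake receptor, stood at 8.63 against 34.6 CPM and 8.18 against 20.3 CPM. All 8 podocyte genes and 7 of 7 tested stromal genes were at or under 0.5 times in VC, beside 7.50% of all genes. In TNFα 1 podocyte gene and no stromal gene were, beside 0.352% of all genes. Because a gene can pass the filter through the other cells alone, these counts are not read as results about the lists. Schwann and neural crest genes summed to 270 CPM in gated and 433 CPM in other VC cells, but to 237 and 222 CPM in TNFα. SOX10, the glial and crest factor, stood at 10.8 against 28.9 CPM in VC.

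The comparison of TNFα with VC asks how these cells differed after cytokine exposure, and it rests on 1 library each. Inflammatory genes were higher in gated TNFα cells. In gated cells 226 of 9641 genes were at least 2 times higher in TNFα (2.34%) and 131 were at or under 0.5 times (1.36%). In cells with 6 to 8 gate genes the counts were 123 of 9272 (1.33%) and 53 (0.572%), and in the other cells 110 of 9730 (1.13%) and 38 (0.391%). Of the higher genes of all gated cells, 94 were also higher with 6 to 8 gate genes, which is 41.6% of the first list and 76.4% of the second. Of the lower genes 8 were shared, 6.11% of the first list and 15.1% of the second. The make-up of the gated cells differed between the libraries as described above, and composition and change within a cell cannot be told apart.

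CCL2, the chemokine that draws monocytes, stood at 13.7 CPM in gated VC cells and 851 CPM in gated TNFα cells, a ratio of 62.1 [53.8 to 72.0]. With 6 to 8 gate genes CCL2 stood at 9.63 and 438 CPM, and in the other cells at 33.7 and 1274 CPM. IL32, a cytokine gene, stood at 16.6 and 403 CPM in gated cells, at 7.22 and 211 CPM with 6 to 8 gate genes and at 27.3 and 583 CPM in the other cells. VCAM1, an adhesion molecule for leukocytes, stood at 6.22 and 152 CPM in gated cells and at 24.7 and 269 CPM in the other cells. The TNFα levels of these 3 genes were lower in gated than in other cells, and the ratios were at least as high. FDCSP, UBD, TNFRSF4, CXCL10, SFRP4, IL4I1, CXCL1 and ICAM1 were the other genes of the 10 highest ratios, and FDCSP, a secreted protein of follicular dendritic cells, was at 0.0707 CPM (1 UMI) in gated VC cells and 188 CPM in gated TNFα cells. Of the 27 NF-κB target genes, 13 of 15 that passed the filter were higher in gated cells, 10 of 12 with 6 to 8 gate genes and 15 of 17 in the other cells. The shares over all genes were 2.34%, 1.33% and 1.13%. Because a target can pass the filter through the TNFα library alone, these counts are not read as a result about the list.

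Receptor and antigen presentation genes were read beside these. TNFRSF1A, the main TNFα receptor, stood at 13.0 CPM in VC and 13.8 CPM in TNFα with 6 to 8 gate genes, and at 52.3 and 54.9 CPM in the other cells. Its ratio between cells with 6 to 8 gate genes and other cells was 0.248 [0.201 to 0.303] in VC and 0.252 [0.171 to 0.358] in TNFα. B2M, the shared chain of class I molecules, stood at 84.0 and 249 CPM with 6 to 8 gate genes and at 318 and 701 CPM in the other cells. SOD2, a mitochondrial superoxide dismutase, stood at 32.8 and 37.0 CPM with 6 to 8 gate genes, a ratio of 1.13 [0.870 to 1.45], and was at 36.4 CPM in the other TNFα cells.

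Within the TNFα library, the level with 6 to 8 gate genes over that in the other cells was 0.344 [0.322 to 0.366] for CCL2, 0.361 [0.329 to 0.396] for IL32, 0.370 [0.332 to 0.411] for NFKBIA and 0.313 [0.270 to 0.361] for VCAM1. The same ratio was 0.318 [0.290 to 0.348] for the stromal gene COL1A1, which neurons should lack. For SOD2 it was 1.02 [0.808 to 1.27] and for HLA-C 0.757 [0.653 to 0.874]. CCL2, IL32, NFKBIA and VCAM1 had ratios like that of the stromal gene in this library, and SOD2 and HLA-C did not, and the part of RNA from other cells in the inflammatory values was not tested. The stromal sum was 1548 CPM in gated TNFα and 668 CPM in gated VC cells, 2.32 times higher, and 1.78 times higher with 6 to 8 gate genes, against 1.07 times in the other cells. In the same 3 classes the muscle sum in TNFα was 1.92, 1.99 and 1.18 times its VC sum. The podocyte sum was 1.37, 1.23 and 0.927 times, and the proximal tubule sum 1.11, 1.44 and 0.724 times. Schwann and neural crest genes went the other way, at 0.879, 0.861 and 0.513 times.

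**Figure D4:**
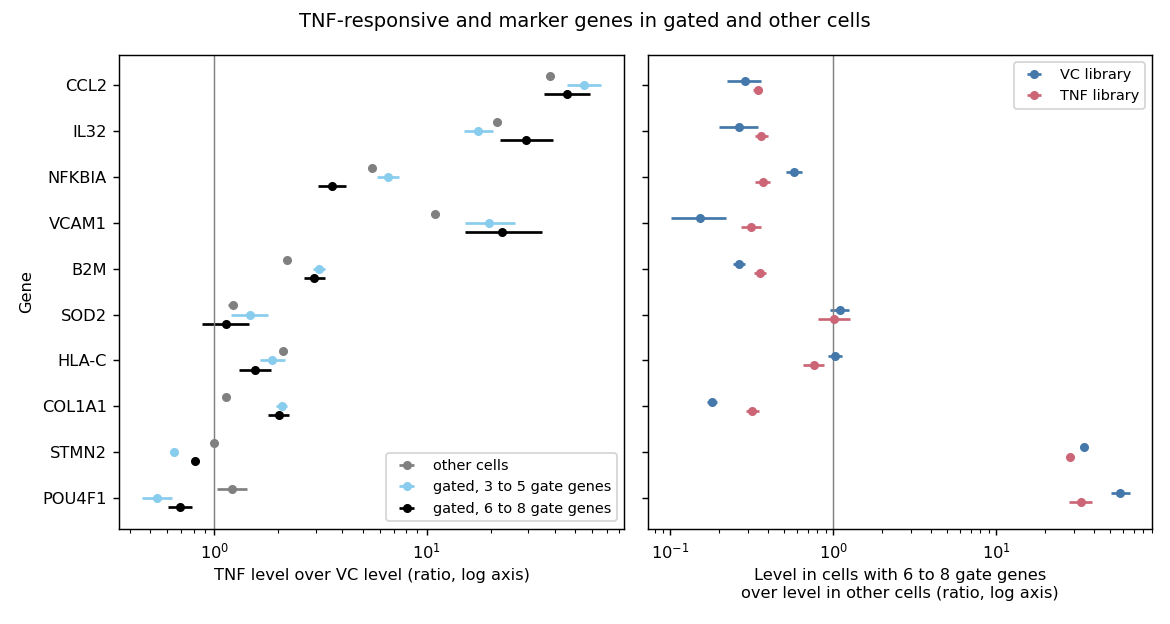
Left, ratio of the TNFα to the VC level (log axis) of 10 genes in other cells, gated cells with 3 to 5 and gated cells with 6 to 8 gate genes; right, ratio of the level with 6 to 8 gate genes to that in other cells of the same library (log axis). Bars are exact 95% intervals for counting error, and in the TNFα library CCL2, IL32, NFKBIA and VCAM1 lie between 0.313 and 0.370, beside COL1A1 at 0.318.

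Sums of neuronal genes were lower in gated TNFα than in gated VC cells, but most tested single genes of these lists were not called. In all gated cells 5 of 16 tested sensory neuron and 2 of 12 pan-neuronal genes were at or under 0.5 times, beside 1.36% of all genes. With 6 to 8 gate genes 1 of 16 and 0 of 12 were, beside 0.572%, and the difference between these classes was not tested. Because a gene can pass the filter through the VC library alone, these counts are not read as results about the lists. POU4F1 in TNFα was 0.471 times [0.427 to 0.519] its VC level in all gated cells and 0.691 times [0.607 to 0.785] with 6 to 8 gate genes. For POU4F3 the values were 0.627 [0.539 to 0.728] and 0.993 [0.838 to 1.17]. The sensory neuron sum was 0.584 times the VC sum in all gated cells and 0.788 times with 6 to 8 gate genes, and the pan-neuronal sum 0.589 and 0.868 times. The 10 lowest ratios in gated cells were those of ANKRD37, VIP, ZBTB16, OLIG3, SLC17A6, AC092661.1, POU3F2, GPRIN3, ST18 and DCC. ANKRD37, a gene known to respond to low oxygen, stood at 25.0 CPM in VC and 5.22 CPM in TNFα, a ratio of 0.209 [0.149 to 0.287], and at 14.3 and 3.71 CPM in the other cells, so it was lower in both. POU3F2, OLIG3 and DCC, genes of central and dorsal neurons, were at 140, 46.3 and 77.2 CPM with 3 to 5 gate genes in VC and at 34.1, 10.2 and 18.6 CPM in TNFα.

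Bulk RNA gave the gate genes in samples the gate did not use. In the TNFα set of day 25 organoids 6 of the 8 gate genes rose (limma, adjusted p under 0.05), against 8.42% of 21093 genes that rose and 10.8% that fell. The split was 1776 genes up and 2285 down, and 1198 and 970 with DESeq2. The times stood in for replicates, 1 library for each time and treatment. This fit left 1 residual degree of freedom. Its SE and p-values by limma therefore rest mostly on the spread borrowed from other genes and do not measure replicate error. CNTN2 was at 5.13 with VC and 5.78 with TNFα at 24 h and at 5.81 and 6.84 at 48 h on the deposited log2(CPM + 1) scale, a difference of 0.84 ± 0.08 (SE, adjusted p = 6.27e-07 by limma). NTRK3 was at 3.29 and 3.69 at 24 h and at 3.46 and 4.33 at 48 h, a difference of 0.64 ± 0.12 (adjusted p = 0.000558 by limma). TNFα was above VC at both times for both genes. The values were also higher for ISL1 (0.54), HMX1 (0.50), PRPH (0.49) and PPP1R17 (0.44), while NEUROD1 (0.24, adjusted p = 0.237 by limma) and SNCG (0.17, adjusted p = 0.135 by limma) did not pass, though SNCG passed with edgeR (adjusted p = 0.0462). With DESeq2 on the recovered reads, HMX1 (adjusted p = 0.111), ISL1 (adjusted p = 0.111) and PPP1R17 (adjusted p = 0.0833) no longer passed. In the same comparison 6 of the 8 Schwann and neural crest genes in the table rose and 1 fell (median log2 difference 0.48, beside 0.49 for the gate genes and -0.03 for all genes), 4 of 8 stromal genes rose and 1 fell (median 0.26), and of 12 pan-neuronal genes 3 rose and 1 fell (median 0.11). The gate genes were therefore not alone in rising, and the part of these other lists in their values was not tested. In bulk, a change in the number of cells of a type and a change in RNA per cell cannot be told apart.

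Of the 27 sensory neuron genes, 26 were in that table, of which 10 rose and 3 fell. SHOX2 was at 1.45 with VC and 2.15 with TNFα at 24 h and at 2.34 and 3.04 at 48 h, a difference of 0.70 ± 0.12 (adjusted p = 0.000359 by limma). RET rose by 1.22 (SE 0.12) and RUNX1, a factor of pain neurons, by 0.95 (SE 0.12). GFRA3 fell by 2.35 (SE 0.10), the largest change of the list, at 6.69 with VC and 4.62 with TNFα at 24 h and at 6.59 and 3.97 at 48 h. In the single cells GFRA3 was highest in podocyte-gated cells, and all 8 podocyte genes fell in this bulk set. PIEZO2 (0.61), TLX3 (0.61), ETV1 (0.53), RUNX3 (0.47), DRGX (0.44), POU4F1 (0.35) and CALCA (0.71) rose, and NTRK2 (-0.45) and TAC1 (-0.37) fell. With DESeq2, POU4F1 (adjusted p = 0.150), TLX3 (0.0559), RUNX3 (0.259), DRGX (0.341) and TAC1 (0.580) no longer passed. The added 1 CPM makes changes of low genes smaller, and edgeR on the recovered reads gave a log2 fold change of 1.503 for RUNX1, 1.42 for RUNX3, 1.56 for CALCA, 0.96 for TLX3, 0.74 for DRGX and -0.60 for TAC1, the last not passing (adjusted p = 0.0503).

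The whole single-cell libraries, gated and other cells together, had the opposite direction for the gate genes. All 8 were lower in TNFα than in VC, with ratios from 0.498 [0.477 to 0.520] for CNTN2 to 0.671 [0.641 to 0.702] for HMX1. SHOX2 stood at 26.3 CPM in VC and 12.6 CPM in TNFα, and POU4F1 at 21.4 and 9.34 CPM. Of 26 sensory genes with a ratio, 19 were lower and 7 higher, among the latter RET at 0.447 and 1.68 CPM. The share of all genes lower in the whole TNFα library was not computed, so these counts are not read as a result about the 2 lists. The bulk set was isolated spheroids of day 25, the single cells were whole cultures of day 24 and the single-cell difference has no replicate, so the directions are given side by side and their difference was not tested.

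**Figure D5:**
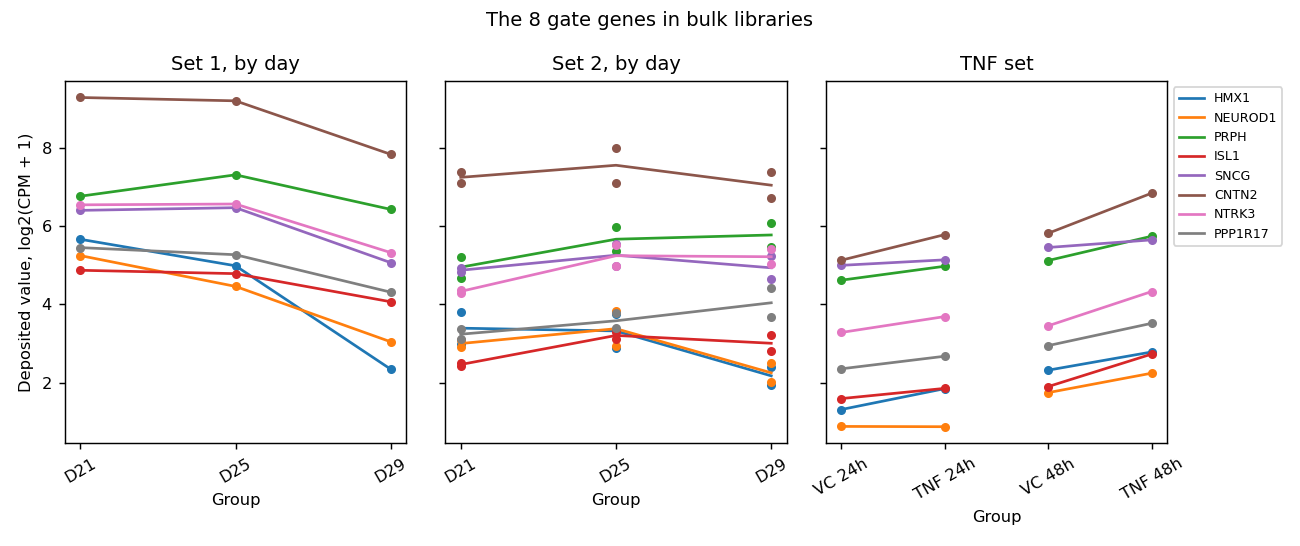
Deposited log2(CPM + 1) values of the 8 gate genes in bulk set 1 (left), set 2 (middle) and the TNFα set (right), with 1 point for each library and lines through the means of days or between VC and TNFα of 1 time. Tables were normalized separately, so levels are read within a panel only, and CNTN2 goes from 5.13 to 5.78 at 24 h and from 5.81 to 6.84 at 48 h.

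With time in culture, 1 gate gene rose and 1 fell in set 2 between day 21 and day 29 (limma, 2 libraries a day), against 10.0% of 27650 genes that rose and 8.33% that fell. The split was 2778 up and 2303 down, and 2408 and 4667 after centring each library on its median, which moved the median of all genes from -0.02 to -0.12. NTRK3 was at 4.37 and 4.29 on day 21, 4.98 and 5.50 on day 25 and 5.03 and 5.40 on day 29, a difference of 0.88 ± 0.18 (SE, adjusted p = 0.0122 by limma), and the day 21 and day 29 libraries did not overlap. HMX1 was at 2.99 and 3.80 on day 21 and 1.96 and 2.40 on day 29, a difference of -1.22 ± 0.34 (adjusted p = 0.0446 by limma). Without replicate 2 of day 21 HMX1 had an adjusted p of 0.250 and NTRK3 of 0.0891 by limma, and HMX1 was also lost without either day 29 library (0.133 and 0.0585) and NTRK3 without replicate 1 of day 21 (0.0684) or replicate 2 of day 29 (0.0538). PPP1R17 (0.80, adjusted p = 0.0572 by limma), PRPH (0.82, adjusted p = 0.0735) and ISL1 (0.54, adjusted p = 0.0683) were higher on day 29 without passing in limma. With edgeR on the recovered reads all 3 passed (adjusted p = 0.0152 for PPP1R17, 0.0250 for PRPH and 0.0262 for ISL1), so that 4 gate genes rose and 1 fell, and with DESeq2 PPP1R17 (adjusted p = 0.00251) and ISL1 (adjusted p = 0.0371) passed, PRPH (adjusted p = 0.181) did not and the lower call of HMX1 was lost (adjusted p = 0.0680). NEUROD1, lower by 0.75 (adjusted p = 0.120 by limma), passed with DESeq2 (adjusted p = 0.0442).

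Of the 27 sensory neuron genes 9 rose and 3 fell. RET was at 2.01 and 1.64 on day 21, 3.16 and 3.15 on day 25 and 3.86 and 3.98 on day 29, a difference of 2.10 ± 0.16 (adjusted p = 0.000188 by limma). TAC1, the substance P gene, rose by 1.75, RUNX1 by 1.46, ETV1, a factor of limb position neurons, by 1.24, P2RX3 by 1.15, SCN9A by 1.09, RUNX3 by 0.96, SCN10A by 0.92 and PIEZO2 by 0.69. EYA1 fell by 0.91, NEUROG1 by 0.87 and CALCA by 0.79. These differences are on the log2(CPM + 1) scale, and 4 of the genes moved over 1.5 times further with edgeR on the recovered reads, with a log2 fold change of 4.77 for TAC1, 4.08 for RUNX3, 3.07 for SCN10A and -3.10 for CALCA, so their order by size is not kept. Leaving out 1 library ended the call of P2RX3 (adjusted p = 0.130 without replicate 1 of day 21), PIEZO2, EYA1, SCN10A and NEUROG1. POU4F1 (0.17), TLX3 (0.32) and SHOX2 (0.35) did not pass. RET and RUNX1 were each at or under 2.25 CPM in gated cells, and ETV1 was at 8.56 CPM in gated and 14.0 CPM in other VC cells. In the same comparison 11 of 12 pan-neuronal, 7 of 8 stromal, 6 of 8 muscle and 4 of 9 Schwann and neural crest genes rose and 5 of 8 podocyte genes fell, beside medians of 0.17 for the sensory list and -0.02 for all genes. Set 1, with 1 library a day, had lower values on day 29 than on day 21 for all 8 gate genes, with HMX1 at 2.35 on day 29 and 5.66 on day 21. The share of all genes that were lower on day 29 in set 1 was not computed.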

How the data were processed

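Single-cell matrices held raw UMI counts, deposited by the authors after Cell Ranger. Cells with over 500 genes were kept, and counts were summed over each class of cells and divided by all its UMIs. Genes were called at a ratio of 2 either way when the mean of both levels reached 10 CPM. Where a class had no UMI, a floor of 3 counts was used. Bulk tables held log2 values, which the authors made as log2(CPM + 1) with 0.5 added to counts, after STAR 2.7.8a and HTSeq 0.11 per the submitters' processing notes. Whole reads were recovered for 100% of values (within 0.05), 19063018 to 59189805 a library. Bulk values were tested with limma 3.58.1 (trended, two-sided, Benjamini-Hochberg over all genes), with edgeR 4.0.16 and DESeq2 1.42.0 on recovered reads as alternatives. Nothing in the labels says that bulk replicates were separate cultures, so p-values do not measure the spread between cultures. They measure at most the spread between these samples. Limma also borrows spread from other genes, most of all in the TNFα set, where 1 residual degree of freedom was left. Clusters were made with scanpy 1.11.5 (Leiden, gate genes left out). Named genes were the gate genes, the 25 highest and 10 lowest against other cells, the 10 highest and 10 lowest with TNFα (at least 20 UMIs), and genes of 30 lists. Members and lists were chosen with earlier results of these data known. Some genes are not reported here.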

Additional observations from a re-analysis of the deposited data

Results flagged for a closer look

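The 8 gate and 27 sensory genes were looked at, of which CALCA had no set 1 value. For 6 of them the change from day 21 to day 29 had opposite signs in the 2 bulk sets, every set 2 library of day 29 lying on the other side of those of day 21. The share of all genes with opposite signs was not computed, so the count is not read as a result about these genes. The log2 difference was -0.34 in set 1 and 0.82 in set 2 for PRPH, -0.80 and 0.54 for ISL1, -1.22 and 0.88 for NTRK3, and -1.14 and 0.80 for PPP1R17. For DRGX it was -0.21 and 0.40, and for P2RX3 -0.37 and 1.15. Set 1 had 1 library a day, so this difference was not tested. No group held the 4 samples that a check for an outlying sample needs.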

How the results depend on the processing

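The share of gated cells followed the gate. It was 21.4% in VC and 18.5% in TNFα with a gate of 2 genes, 7.89% and 3.45% with 4, 5.20% and 1.15% with 6, and 7.0% and 3.65% after thinning, and VC without its top doublet scores had 11.2%. VC stayed above TNFα in each. The gate of 6 genes and the doublet scores were chosen after seeing the data. A planned run without Scrublet doublets gave no value because the caller marked 0 cells.

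Counts of genes moved as well. With a gate of 4 genes 374 genes were lower in gated TNFα cells than in other cells and 51 were lower with TNFα than VC in gated cells. After thinning, 1174 genes were lower in gated VC cells, 656 were higher and 532 lower in gated TNFα cells, and 373 were higher and 50 lower with TNFα. With a gate of 6 genes the counts were 1162 lower in VC, 768 higher and 1114 lower in TNFα, and 123 higher and 53 lower with TNFα. With a mean over cells 9 genes were lower in gated TNFα cells, and 435 were higher and 332 lower with TNFα. At 50 CPM or more, 230 were higher and 175 lower in VC, 93 higher and 1 lower in TNFα, and 62 higher and 28 lower with TNFα, fewer genes being tested. Of the named single-cell values, 258 moved beyond their interval, 212 did not and 0 changed sign.

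In bulk, day 29 against day 21 gave 5081 calls and 2358 to 5417 when 1 library was left out, with 2535 without replicate 1 and 2358 without replicate 2 of day 21 and 3334 without replicate 2 of day 29. Leaving out 1 library assumes that the lone sample of a day varies like the other days. A replicate block gave 6056 calls, among them PRPH (adjusted p = 0.000238), PPP1R17 (0.00584), NEUROD1 (0.0273) and ISL1 (0.0351). With the filter on low values PPP1R17 (0.0320), PRPH (0.0425) and ISL1 (0.0372) passed too. Deviations of equally numbered libraries correlated by 0.14 for day 21 and 25, 0.075 for day 21 and 29 and 0.27 for day 25 and 29, not all over 0.1, and the labels name no shared culture or batch, so the numbers were not taken as pairs. The TNFα set gave 4061 calls, 4455 with edgeR and 2168 with DESeq2. Of gene calls under the alternatives, 230 kept their side of the threshold, 28 were lost and 0 changed sign. The cause of these shifts was not tested.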

Other observations

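HOX genes mark position along the body axis. Of the 28 of 39 HOX genes that passed the level filter in VC, 7 were at least 2 times higher in gated cells and 0 lower, beside 7.29% and 7.50% of all genes, and in TNFα 4 of 27 were higher, beside 3.73% of all genes. Because a gene can pass the level filter through the gated cells alone, the counts are not read as a result about the HOX list. HOXB9 stood at 386 CPM in gated and 110 CPM in other VC cells, and at 234 and 89.7 CPM in TNFα. HOXB6 stood at 142 and 52.1 CPM and HOXB8 at 132 and 44.6 CPM in VC. Other neuronal cells held HOXB9 at 416 CPM in VC and 407 CPM in TNFα, so the level was not particular to the gate.

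Of the axon guidance genes that passed the filter, 4 of 16 were at least 2 times higher in gated VC cells and 2 lower, beside 7.29% and 7.50% of all genes, and 4 of 15 were higher in TNFα, beside 3.73%. A gene can pass that filter through the gated cells alone, so these counts are not read as a result about the list. The sum of the 22 genes was 943 CPM in gated and 678 CPM in other VC cells. Of 3 of them, chosen after their values were seen, L1CAM, an adhesion molecule of growing axons, stood at 140 CPM with 6 to 8 and 58.6 CPM with 3 to 5 gate genes in VC, and PLXNA4, a semaphorin co-receptor, at 51.1 and 9.60 CPM. ROBO3, a receptor of commissural axons, went the other way, at 8.56 CPM with 6 to 8 and 73.9 CPM with 3 to 5 gate genes. Among genes known from injured or regrowing axons, 2 of 6 that passed the filter in VC and 2 of 7 in TNFα were at least 2 times higher in gated cells, beside the same 7.29% and 3.73% of all genes and with the same limit. SOX11 stood at 508 CPM in gated and 114 CPM in other VC cells, STMN4 at 195 and 13.2 CPM and ATF3 at 13.8 and 3.60 CPM. Immediate early and stress genes summed to 807 CPM in gated and 749 CPM in other VC cells, and to 872 and 908 CPM in TNFα.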
